A study of Mus musculus with 6 samples.

Results

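The genes described here are 10 components of the Notch pathway: the receptors Notch1, Notch2, Notch3 and Notch4, the ligands Jag1, Jag2 and Dll1, the nuclear factor Rbpj, and the target genes Hes1 and Hey1. They were chosen by name, and every probe set paired with exactly 1 of these symbols was taken, which gave 20 of the 45101 probe sets on the array and 10 of its 18194 named genes. The values come from Affymetrix mouse genome expression arrays hybridized with RNA of YFP-marked luminal mammary epithelial cells (MECs), sorted as Lin−CD24+CD29lo cells from 3 Runx1-null and 3 Runx1-WT mice, with 1 array per mouse. Runx1-null mice were MMTV-Cre;Runx1L/L;R26Y and Runx1-WT mice were MMTV-Cre;Runx1+/+;R26Y, so both groups carried the MMTV-Cre transgene and the R26Y reporter, a Cre-dependent YFP at the Rosa26 locus. All were adult virgin females of a mixed B6/129/FVB background, and their exact ages are not given in the sources used here. MMTV-Cre acts mainly in the luminal lineage and, per the study, also recombines in some basal cells, which the CD29lo gate is meant to leave out. Mice were the replicates, and the comparison asked how loss of the transcription factor RUNX1 in luminal MECs was accompanied by differences in Notch pathway transcripts.

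Notch receptors are single-pass membrane proteins that are cut when a ligand on a neighbouring cell binds them. The freed intracellular part enters the nucleus, joins the DNA-binding protein RBPJ and activates targets that include the transcriptional repressors of the Hes and Hey families. In the mammary gland Notch activity is known for favouring the luminal over the basal fate, and Notch3 in particular marks luminal progenitors.

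None of the 10 Notch members differed between the genotypes beyond the spread between mice. Of the 9 members bright enough to be tested, 0 passed an adjusted p under 0.05 in limma (a moderated linear model fitted across all genes), and the same was true of 0% of all 12152 genes tested. At an unadjusted limma p under 0.05 there were 0 of the 9 members, beside 1.93% of all genes (234), and by the methods' t-test at the same unadjusted threshold 0 members and 335 genes. No member separated all 3 Runx1-null from all 3 Runx1-WT mice, which 5.55% of all genes tested did (3.47% lower and 2.08% higher in Runx1-null). Among the 9, Notch1 and Dll1 had log2 differences (Runx1-null minus Runx1-WT) above 0 and the other 7 below 0, as 55.4% of all genes were, and Notch3 crossed to above 0 when arrays were scaled to the same median. The members' median log2 difference was -0.16, and that over all genes tested was -0.02. Each of the 9 had a limma adjusted p of 0.9997, and in exact permutation tests of single genes, two-sided, 0.1 is the smallest p that 3 mice against 3 allow.

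**Figure D1:**
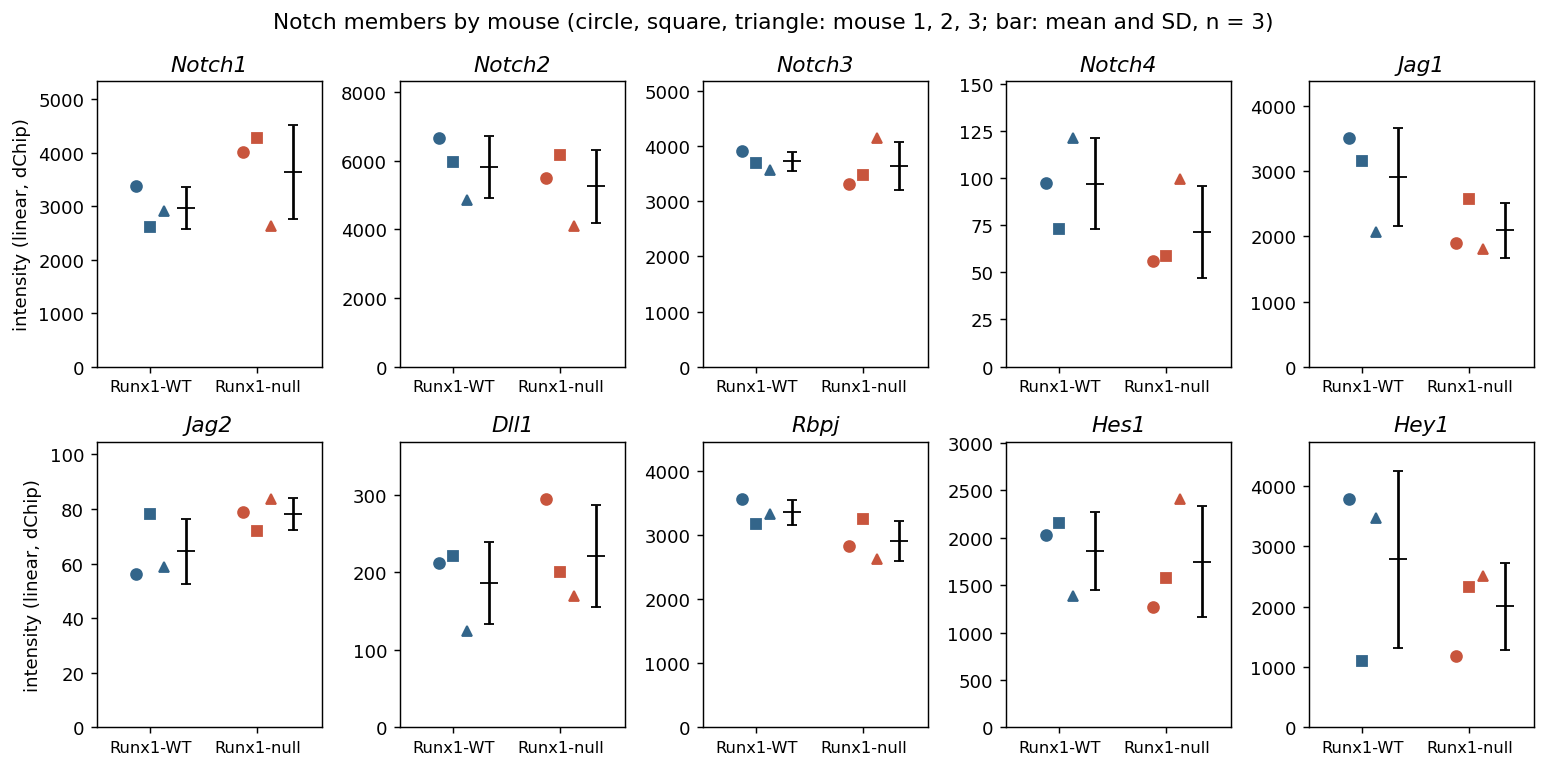
Linear array intensity (y axis, from 0, own scale for each gene) of the 10 Notch members in 3 Runx1-WT and 3 Runx1-null mice, with circles, squares and triangles for mice 1, 2 and 3 and a bar for the mean and SD. The points of the 2 genotypes overlap in every panel, and Hey1 has its lowest values in Runx1-WT mouse 2 (1102) and Runx1-null mouse 1 (1187).

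Array-wide values were similar apart from Runx1-null mouse 3, and marker transcripts of other cell types were at unequal levels. Median intensity lay between 106 in Runx1-null mouse 3 and 163 in Runx1-WT mouse 1. Between 18.8% and 22.3% of probe sets were below the intensity floor of 19.3, with the highest share in Runx1-null mouse 3. That mouse also had the largest 3′ minus 5′ actin difference (0.74 on the log2 scale, against 0.44 to 0.52 in the other mice). The luminal markers Krt8, Krt18, Krt19 and Epcam were at 9411 to 14017 in all 6 mice. Runx1-WT mouse 3 stood apart in leukocyte markers, whose summed intensity was 11057 there and 2277 to 3858 in the other 5 mice, and in Tnfsf11, the RANK ligand of mature luminal cells, at 4980 against at most 337. Basal and myoepithelial markers summed to 17368 in Runx1-WT mouse 3 and to 17380 and 18830 in Runx1-null mice 1 and 2. In the other mice they summed to 6352 to 8892. In bulk RNA, fewer cells of a type and less RNA per cell cannot be told apart. By flow cytometry the study found a smaller share of mature luminal cells among YFP-marked luminal cells of Runx1-null females, and a larger share of progenitors. The part of such a shift in the values here was not tested. The brightest Runx1 probe set gave 4082, 3855 and 2015 in Runx1-WT mice 1, 2 and 3 and 3473, 4820 and 2277 in the Runx1-null mice. It differed by 0.09 on the log2 scale (SE 0.36), and the 6 Runx1 probe sets differed by -0.19 to 0.26 with overlapping groups in each. Their position relative to the floxed exon was not analysed here, so these values were not used to check the deletion or the labels. By quantitative RT-PCR the study reported loss of Runx1 expression in YFP-marked MECs of such mice, but only a slight reduction in those of the mature luminal gate.

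The receptors showed no common direction. Notch1, whose activity supports luminal commitment, measured 3386, 2605 and 2913 in Runx1-WT mice 1, 2 and 3 and 4019, 4269 and 2638 in Runx1-null mice 1, 2 and 3. Runx1-null mice 1 and 2 lay above every Runx1-WT mouse and Runx1-null mouse 3 lay between the lowest pair of them. The means were 2968 ± 393 and 3642 ± 878 (SD, n = 3 each), and the log2 difference was 0.27 (SE 0.21, 95% interval -0.22 to 0.76), with p = 0.3 in the exact permutation test. The second Notch1 probe set gave 0.02 (SE 0.14), also with overlapping groups, so only the brighter probe set carried a positive difference of that size.

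Notch2, a receptor reported in luminal lineages of the mouse gland, measured 6644, 5946 and 4841 in Runx1-WT mice and 5482, 6172 and 4088 in Runx1-null mice. Both genotypes spanned most of the same range, with the lowest value in Runx1-null mouse 3. The log2 difference was -0.16 (SE 0.18, 95% interval -0.58 to 0.27), with p = 0.6 in the exact permutation test. Its dim second probe set (131, 93.9 and 88.7 against 54.5, 120 and 57.6) gave -0.51 with an SE of 0.41, so neither probe set separated the genotypes.

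Notch3, the receptor of luminal progenitors and also of pericytes, had the smallest difference of the 9 tested members. It measured 3908, 3705 and 3564 in Runx1-WT mice and 3315, 3486 and 4145 in Runx1-null mice, and the Runx1-null values lay on both sides of all Runx1-WT values. The means were 3725 ± 173 and 3649 ± 438 (SD, n = 3 each) and the log2 difference was -0.04, with a 95% interval of -0.31 to 0.24, which corresponds to a ratio between 0.807 and 1.18. The second Notch3 probe set gave -0.15 (SE 0.13) with overlapping groups. Of the 7 pericyte markers, 6 were tested, with 2 differences above 0, 4 below and a median of -0.37, and their mean log2 level was 8.90 to 9.20 in Runx1-WT and 8.44 to 8.75 in Runx1-null mice, without overlap. Their summed intensity overlapped (4269 to 6044 against 4089 to 4988). The mean log2 level of these markers was lowest in Runx1-null mouse 3 (8.44), where Notch3 was highest. It was highest in Runx1-WT mouse 1 (9.20), which had the highest Notch3 of the Runx1-WT mice. Of the defining markers Rgs5 was at 213 to 1532, Pdgfrb at 86.7 to 169 and Kcnj8 at 86.4 to 146, while Cspg4 was at 12.8 to 27.0, and the part of these cells in the Notch3 values was not tested.

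Notch4, a receptor best known from endothelial cells and from the mouse mammary tumour virus integration site Int3, was close to the minimum mean intensity of 73.5 required for testing. It measured 97.2, 72.7 and 121 in Runx1-WT mice and 55.9, 58.7 and 99.2 in Runx1-null mice. Runx1-null mice 1 and 2 were the lowest of the 6, while Runx1-null mouse 3 lay above 2 of the Runx1-WT mice. The log2 difference was -0.46 (SE 0.37, 95% interval -1.35 to 0.42), with p = 0.3 in the exact permutation test. A second probe set measured 85.9, 69.6 and 117 against 68.3, 46.9 and 82.8 and differed by -0.47 (SE 0.38), and the third lay below the floor on all 6 arrays and gives no difference.

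The endothelial markers had the same sign as Notch4. Of 12 such markers, the 11 tested all had differences below 0, with a median of -0.48, and their summed intensity was 2560 to 3695 in Runx1-WT and 1952 to 2498 in Runx1-null mice, without overlap. Of the defining markers, Pecam1 was at 82.1 to 136, Cdh5 at 25.97 to 99.5, Kdr at 129 to 353 and Tek at 109 to 292 over the 6 mice. Cdh5, with a mean of 64.0, was too dim to be tested. Among the Runx1-WT mice the list's mean log2 level was highest in mouse 1 (8.14) and lowest in mouse 3 (7.75), where Notch4 was highest. Among the Runx1-null mice it was 7.22, 7.48 and 7.61 in mice 1, 2 and 3, the same order as Notch4. Runx1-null mice 1 and 2 were the lowest of the 6 for both the list and Notch4. The part of endothelial RNA in the Notch4 difference was not tested.

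Among the ligands, Jag1 had the smallest unadjusted limma p of the tested members in the main fit. The p of Rbpj was smaller with no intensity minimum and by the methods' t-test, and that of Notch1 with arrays scaled to the same median. Other members also came first in some settings with fewer mice. Jag1, a Notch ligand of the Serrate type, measured 3505, 3162 and 2074 in Runx1-WT mice and 1902, 2573 and 1804 in Runx1-null mice. Runx1-WT mice 1 and 2 were the highest of the 6 and Runx1-WT mouse 3 fell among the Runx1-null values. The means were 2914 ± 747 and 2093 ± 419 (SD, n = 3 each), a ratio of 0.727 (95% interval 0.490 to 1.08) and a log2 difference of -0.46 (SE 0.24), with an unadjusted limma p of 0.097, an adjusted p of 0.9997 and p = 0.2 in the exact permutation test.

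All 3 Jag1 probe sets had differences below 0, and they report on the same transcripts and are not separate evidence. The second measured 793, 615 and 418 against 366, 517 and 261 and differed by -0.68 (SE 0.35), with the 2 highest mice again Runx1-WT mice 1 and 2. The third measured 181, 126 and 73.0 against 79.1, 127 and 46.8 and differed by -0.61 (SE 0.51). In both the groups overlapped. With the lower range of animal numbers alone (2 mice per genotype) the Jag1 difference was -0.59, and in the remaining pair it was -0.20.

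Fibroblast markers had the same sign as Jag1. The 10 fibroblast and matrix markers, all tested, had differences below 0 with a median of -0.63, and their summed intensity was 13509 to 17241 in Runx1-WT and 5624 to 14839 in Runx1-null mice. Their mean log2 level was highest in Runx1-WT mouse 1 (10.25) and lowest in Runx1-null mouse 3 (8.53), the mice with the highest and lowest Jag1. The same mice had the highest and lowest array-wide median intensity (163 and 106). With arrays scaled to the same median, Jag1 differed by -0.37 and the median of the fibroblast and matrix markers was -0.54. The defining markers Col1a1 (709 to 2896), Col1a2 (515 to 1994), Col3a1 (1306 to 3664) and Pdgfra (376 to 1140) were measured in every mouse. Pericyte markers had the same extreme mice in mean log2 level, Runx1-WT mouse 1 (9.20) and Runx1-null mouse 3 (8.44). Endothelial markers were also highest in Runx1-WT mouse 1 (8.14) but lowest in Runx1-null mouse 1 (7.22). The basal markers had a median of 0.43, opposite in sign to Jag1. The part of any of these cell types in the Jag1 difference was not tested.

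Jag2 and Dll1, the other ligands, were dim. Jag2, also of the Serrate type, had a mean intensity of 71.3 over the 6 mice, just under that minimum. It measured 56.3, 78.2 and 58.9 in Runx1-WT mice and 78.9, 71.9 and 83.6 in Runx1-null mice, with Runx1-WT mouse 2 among the Runx1-null values. Its log2 difference was 0.29 (95% interval -0.16 to 0.74 in the fit with no minimum), and its second probe set (33.9, 45.4 and 41.4 against 35.3, 32.3 and 25.5) gave -0.38, the opposite sign. The Jag2 probe sets therefore give no common direction. Dll1, a Delta-type ligand, measured 211, 221 and 125 in Runx1-WT mice and 294, 200 and 169 in Runx1-null mice, with its extremes in Runx1-null mouse 1 and Runx1-WT mouse 3. Its log2 difference was 0.26 (SE 0.34, 95% interval -0.55 to 1.06), and without Runx1-WT mouse 3 it was -0.01.

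**Figure D2:**
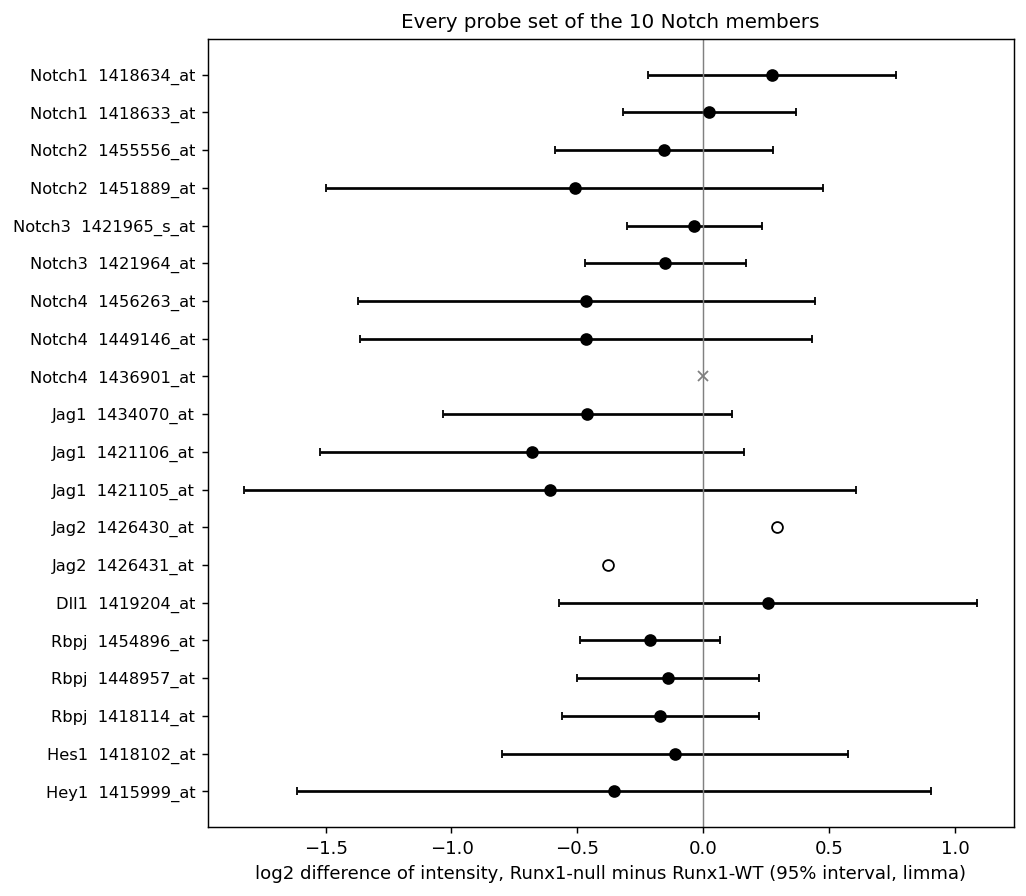
Log2 difference of intensity, Runx1-null minus Runx1-WT (x axis), for each of the 20 member probe sets, with 95% intervals from limma for the 17 that passed the intensity minimum, open circles for the 2 Jag2 probe sets that did not, and a cross for the Notch4 probe set below the floor on all 6 arrays. Every interval includes 0, 3 of the 17 points lie above 0 and 14 below, and the 3 Jag1 points lie between -0.68 and -0.46.

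The same count over probe sets gave no call. Of the 20 member probe sets, 17 passed the minimum and 0 passed an adjusted limma p under 0.05, as 0% of the 27061 probe sets tested, and none reached an unadjusted p under 0.05, which 1.33% of all did. None of the 17 separated the genotypes, against 4.84% of all, and 14 lay below 0 beside 59.2% of all. Their median was -0.17 and that of all probe sets tested -0.04.

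Rbpj, the DNA-binding partner of all Notch receptors, measured 3564, 3176 and 3332 in Runx1-WT mice and 2832, 3249 and 2636 in Runx1-null mice. Runx1-null mice 1 and 3 were the lowest of the 6 and Runx1-null mouse 2 lay between Runx1-WT mice 2 and 3. The means were 3357 ± 196 and 2906 ± 313 (SD, n = 3 each), and the log2 difference was -0.21 (SE 0.12, 95% interval -0.50 to 0.07), with p = 0.2 in the exact permutation test. The other Rbpj probe sets gave -0.14 (SE 0.15) and -0.17 (SE 0.16), with overlapping groups, so the 3 estimates lay within 1 SE of each other.

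Promoter windows were searched for the RBPJ core motif in the 8 members with an entry, which Hes1 and Hey1 had not. The letters TGGGAA were searched on both strands (TTCCCA on the other) in windows of 300 bases around gene starts from RefSeq (mouse build GRCm38.p6), where 25.6% of 32851 promoters held them. The longer form GTGGGAA, which contains the core and so overlaps it, was in 6.38% and the RUNX motif TGTGGT in 16.8%. Of the 8 members, Rbpj held the core (in both of its overlapping windows, 2 of the 10 searched), 0 held the longer form and 0 the RUNX motif. The stretch below, chr5:53590176-53590315 on the plus strand, is shown because it holds both core matches of the Rbpj window, in capitals, beginning 149 and 65 bases before the annotated start.
Rbpj: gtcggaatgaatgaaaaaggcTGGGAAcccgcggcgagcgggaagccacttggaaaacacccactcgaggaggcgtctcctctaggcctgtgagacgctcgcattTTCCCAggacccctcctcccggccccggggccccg
A match to these letters describes the sequence and does not show binding, and the arrays measured no binding.

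The targets Hes1 and Hey1 varied more between mice of 1 genotype than between genotypes. Hes1, a repressor that is a direct Notch target in many tissues, measured 2034, 2157 and 1385 in Runx1-WT mice and 1268, 1571 and 2407 in Runx1-null mice. Its lowest value and its highest were both in Runx1-null mice (1 and 3). The log2 difference was -0.11 (SE 0.29, 95% interval -0.79 to 0.56), with p = 0.9 in the exact permutation test. Its sign depended on which mice were compared: it was -0.57 among the 4 mice with low animal numbers and 0.80 in the pair with high ones, and it turned to 0.01 without Runx1-WT mouse 2 and to 0.09 without Runx1-null mouse 1.

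The 2 lowest mice for Hes1 were Runx1-null mouse 1 and Runx1-WT mouse 3. This pair was lowest for 14.3% of all genes tested, and of the mature luminal markers it was lowest for 3 of the 7 tested: for Esr1, the estrogen receptor (3055 and 3593, against 4345 to 6271), for Pgr, the progesterone receptor (2865 in Runx1-WT mouse 3 and 2906 in Runx1-null mouse 1, against 5145 to 7128 in the other mice), and for Prom1, a surface marker of hormone-sensing luminal cells (2780 and 2067, against 5762 to 7311). The other 4 had other patterns: Tnfsf11 was highest in Runx1-WT mouse 3, Cited1 was lowest in Runx1-null mouse 3, and Foxa1 and Wnt4 were lowest in Runx1-null mice 1 and 2. The list's mean log2 level was highest in Runx1-WT mouse 3 (11.68), and it included Tnfsf11, at 4980 there against at most 337 in the other mice. Each of the other tested markers had its lowest Runx1-WT value in mouse 3. The list's summed intensity was 24665 in that mouse, against 33208 and 31852 in Runx1-WT mice 1 and 2. Numb, an inhibitor of Notch receptors, was also lowest in Runx1-WT mouse 3 and Runx1-null mouse 1, at 1347 and 1735 against 2580 to 3837. The genes of that pattern were singled out after their values were seen, and whether a difference in luminal cell types accompanied the Hes1 values was not tested.

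Hey1, a repressor of the Hairy and Enhancer-of-split family, had the widest spread of all members. Its values were 3783, 1102 and 3466 in Runx1-WT mice and 1187, 2323 and 2501 in Runx1-null mice. The 2 lowest mice came from different genotypes, and the 2 highest were Runx1-WT mice 1 and 3. The means were 2783 ± 1465 and 2004 ± 713 (SD, n = 3 each), and the 95% interval of the log2 difference ran from -1.59 to 0.88, a ratio between 0.332 and 1.84. Leaving out Runx1-WT mouse 2 gave -0.93 and leaving out Runx1-null mouse 1 gave -0.01, so 1 mouse on either side set the size of the Hey1 difference while its sign stayed below 0.

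The 2 mice with low Hey1 also had the lowest mean log2 level of luminal progenitor markers, 10.96 in Runx1-WT mouse 2 and 11.22 in Runx1-null mouse 1 against 11.34 to 11.49 in the others. Of that list's defining markers, Elf5, a transcription factor of alveolar progenitors, was at 1119 in Runx1-WT mouse 2 and 2691 to 3640 in the other mice, and Kit, a receptor tyrosine kinase of progenitors, at 2268 there and 3396 to 4840 in the others. Cd14 lay between 6438 and 9218 and Aldh1a3 between 5668 and 7096. The low mean of Runx1-null mouse 1 included the lowest value of Ltf, a secreted antimicrobial protein (2265, against 3406 to 8301 in the other mice), while Kit (3507), Elf5 (2785), Aldh1a3 (6991) and Lbp (625) were above their values in Runx1-WT mouse 1, where Hey1 was highest. The pair of Runx1-WT mouse 2 and Runx1-null mouse 1 was lowest for 9.52% of all genes, and the part of progenitor content in the Hey1 values was not tested.

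**Figure D3:**
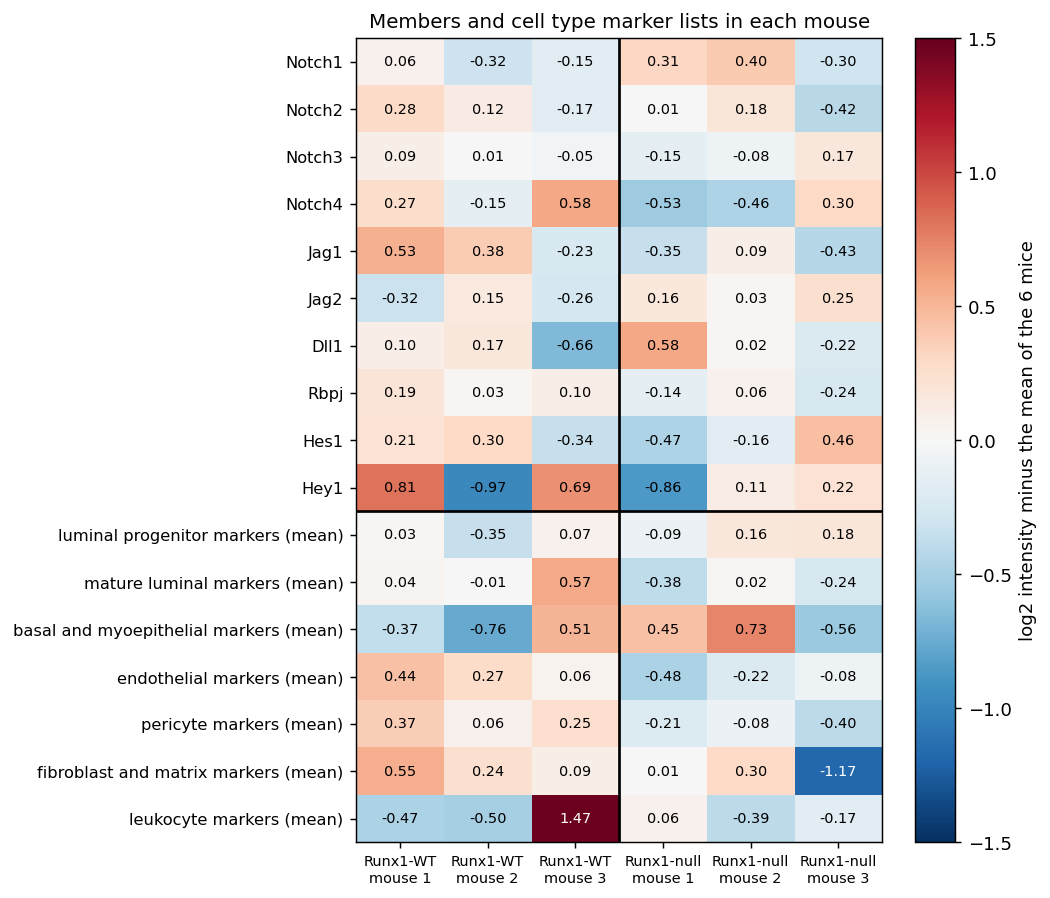
Log2 intensity of each Notch member and mean log2 intensity of each cell type marker list (rows) in the 6 mice (columns), minus the row's mean over the mice, coloured from -1.5 (blue) to 1.5 (red). Hey1 is at -0.97 in Runx1-WT mouse 2 and -0.86 in Runx1-null mouse 1, fibroblast markers are at -1.17 in Runx1-null mouse 3, and leukocyte markers are at 1.47 in Runx1-WT mouse 3.

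The labels give animal numbers in a lower range (2 mice per genotype) and an upper range (1 mouse per genotype), and what the ranges stand for is not stated. Within the lower range alone 0 members passed an adjusted limma p under 0.05. There, 3 of the 9 tested members had an unadjusted limma p under 0.05, beside 15.4% of all genes, and these were Notch1 (0.48), Jag1 (-0.59) and Hes1 (-0.57). In the pair of the upper range Notch1 was at -0.14, Jag1 at -0.20 and Hes1 at 0.80, with no test possible, so only Jag1 of these had 1 sign in both ranges. Notch2, Notch4, Dll1, Rbpj and Hey1 also had 1 sign in both, at -0.11 and -0.24, -0.55 and -0.29, 0.17 and 0.44, -0.15 and -0.34, and -0.30 and -0.47, as did the untested Jag2 (0.18 and 0.51), and Notch3 did not (-0.16 and 0.22).

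**Figure D4:**
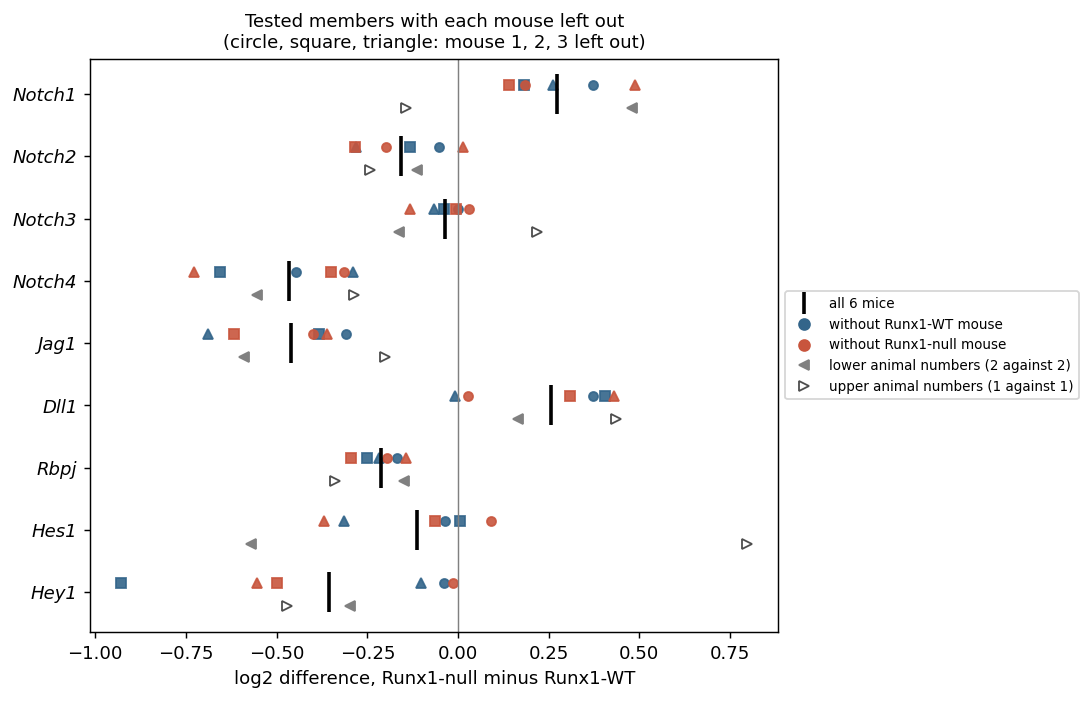
Log2 difference, Runx1-null minus Runx1-WT (x axis), of the 9 tested members with all 6 mice (black bar), with each mouse left out (coloured symbols) and within the lower (filled grey) and upper (open) ranges of animal numbers. Notch4, Jag1, Rbpj and Hey1 stay below 0 at every symbol, and Hes1 runs from -0.57 to 0.80.

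The rest of the pathway was read from lists of 57 other genes, of which 52 had a probe set naming that gene alone and 44 were bright enough to be tested. Of the 44, 0 passed an adjusted limma p under 0.05, 17 had differences above 0 and 27 below, and their median was -0.04, beside -0.02 for all genes. One of them, Hes6, had an unadjusted p under 0.05 and separated the genotypes. The other ligands on the list, Dll3 and Dll4 among them, were all too dim to be tested (0 of 5), and Maml3 was not among the genes with a probe set of its own.

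Of the 5 genes on the list of other target genes, 4 were tested. Hes6 is on that list, and whether it answers to Notch in these cells was not tested. Hes6, a Hes family member that counteracts Hes1 in neural cells of the mouse, measured 1252, 1074 and 1385 in Runx1-WT mice and 794, 782 and 902 in Runx1-null mice. All 3 Runx1-null mice lay below all 3 Runx1-WT mice, which 3.47% of all genes tested did. The log2 difference was -0.58 (SE 0.18), with an unadjusted limma p of 0.013, an adjusted p of 0.9997 and p = 0.1 in the exact permutation test, the smallest it can give. The probe set is of the _x_ type, which can share probes with other transcripts, and the dimmer second Hes6 probe set (231, 262 and 221 against 162, 184 and 224) gave -0.33 (SE 0.24) with overlapping groups, so only the brighter one separated the genotypes.

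Nrarp, a Notch target that feeds back on the receptor complex, measured 4346, 4708 and 4019 in Runx1-WT mice and 3822, 4132 and 3630 in Runx1-null mice, with a log2 difference of -0.17 (SE 0.10). Its groups overlapped through Runx1-null mouse 2 only, and its second probe set gave -0.39 (SE 0.25). Hey2 and Heyl, the relatives of Hey1, had log2 differences of 0.09 (SE 0.28) and 0.00 (SE 0.53). Heyl measured 215, 105 and 454 in Runx1-WT mice and 177, 290 and 199 in Runx1-null mice, so it shared with Hey1 its 2 lowest mice. Its other probe sets did not share that pair: the second (56.8, 60.4 and 136 against 96.1, 117 and 54.2) was lowest in Runx1-null mouse 3 and Runx1-WT mouse 1, and the third, too dim to be tested, in Runx1-WT mice 2 and 1. Hes5, read from its brighter probe set, was below the floor on 5 of 6 arrays.

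The 46 other pathway genes with an entry had 61 windows, of which 14 (23%) held the RBPJ core, 6 (9.84%) the longer form and 8 (13.1%) the RUNX motif, beside 25.6%, 6.38% and 16.8% of all windows. A stretch of Lfng (chr5:140607191-140607260, plus strand, matches beginning 135 and 108 bases before the start) is shown because Lfng had the largest difference in size among these genes, and one of Hey2 (chr10:30842954-30843013, minus strand, match 207 bases before the start) because Hey2 is a tested relative of Hey1. The core is in capitals in each, and the Hey2 stretch holds 1 of the 2 core matches of its window.
Lfng: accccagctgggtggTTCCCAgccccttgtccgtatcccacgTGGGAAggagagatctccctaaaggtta
Hey2: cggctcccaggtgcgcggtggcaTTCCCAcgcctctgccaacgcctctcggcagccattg
Both genes carry the core letters also found at Rbpj and, in the same windows, the longer form that the Rbpj window lacks, and neither differed between genotypes beyond the spread between mice.

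Lfng, a Fringe glycosyltransferase that alters which ligands a Notch receptor answers to, measured 479, 788 and 645 in Runx1-WT mice and 427, 231 and 592 in Runx1-null mice. Runx1-null mice 1 and 2 were the lowest of the 6 and Runx1-null mouse 3 lay between Runx1-WT mice 1 and 3. The log2 difference was -0.69 (SE 0.38), with p = 0.2 in the exact permutation test. The 4 tested glycosyltransferases had a median of -0.11, with 1 above 0 and 3 below, and Mfng was too dim to be tested.

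None of the receptor cleavage genes passed the limma test. The 8 tested had 3 differences above 0 and 5 below, each read from its brightest probe set, with a median of -0.07 (0.02 with scaled arrays) and a range of -0.26 to 0.08. Adam10 and Adam17, the proteases that make the first ligand-induced cut, differed by -0.13 (SE 0.16) and 0.02 (SE 0.13), and Ncstn, a subunit of gamma-secretase, by -0.09 (SE 0.17). The 3 dimmer Adam10 probe sets gave larger differences below 0, at -0.49 (SE 0.21), -0.32 (SE 0.48) and -0.47 (SE 0.47), with overlapping groups in each. The 4 ligand endocytosis genes had a median of -0.17, with 1 above 0 and 3 below.

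Among nuclear partners of RBPJ, the 5 tested co-activators had a median of -0.05, with 1 above 0 and 4 below, and the 11 tested co-repressors had a median of -0.05 with 5 above and 6 below. Maml1, the Mastermind co-activator, differed by -0.05 (SE 0.11), and Maml2 was too dim to be tested. Tle3, a Groucho co-repressor recruited by Hes proteins, measured 5783, 5497 and 5563 in Runx1-WT mice and 4457, 5553 and 5036 in Runx1-null mice, with overlap through Runx1-null mouse 2. The 8 genes of receptor turnover and endocytic inhibition had a median of 0.07, with 5 above and 3 below. The sign of several role medians depended on the scaling. With arrays scaled to the same median those of cleavage (0.02), co-activators (0.04), co-repressors (0.04) and the other targets (0.0035) were above 0 too. With quantile normalization those of co-repressors (0.03) and of the member ligands (0.35, with Jag2 then bright enough to be tested) were. Of the turnover and inhibition genes, without rescaling of the deposited values, Numb differed by 0.25 (SE 0.38). Fbxw7, a ubiquitin ligase subunit that marks the Notch intracellular domain, differed by -0.03 (SE 0.19).

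**Figure D5:**
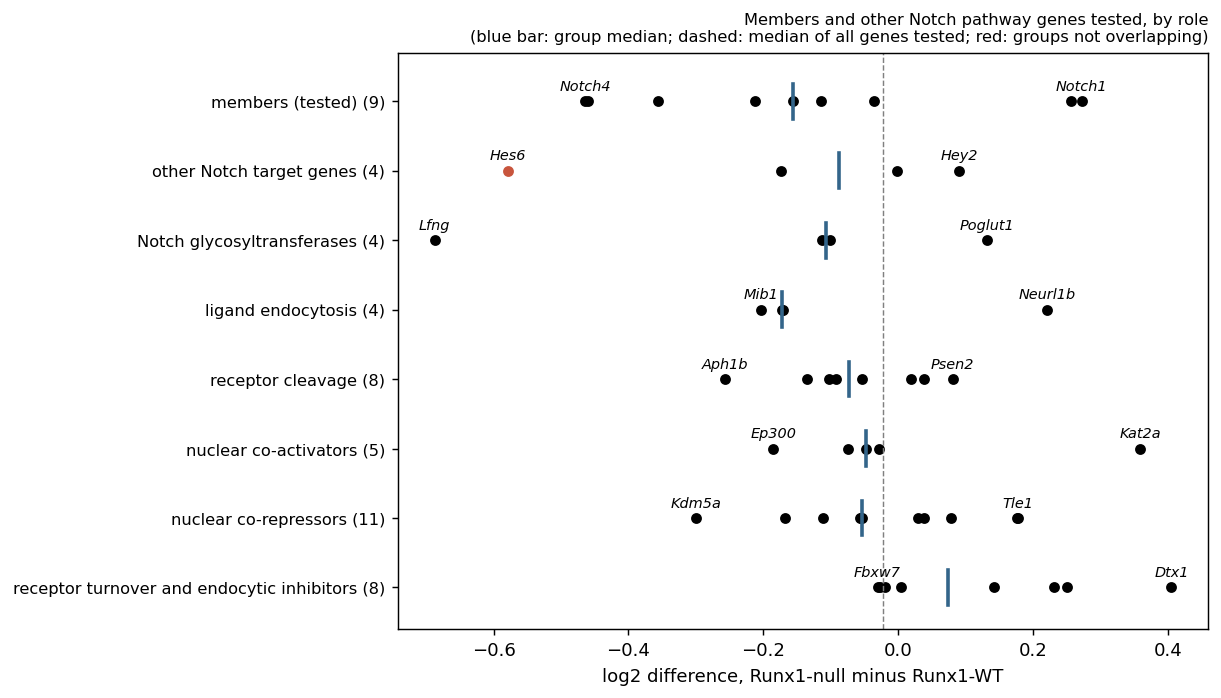
Log2 difference, Runx1-null minus Runx1-WT (x axis), of the tested members and of the 44 other tested Notch pathway genes, one point per gene and one line per role, with a blue bar at each median and a dashed line at the median of all genes (-0.02). Hes6, in red, is the one gene whose genotypes do not overlap, and the group medians run from -0.17 (ligand endocytosis) to 0.07 (turnover and endocytic inhibitors).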

How the data were processed

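The authors amplified the RNA with NuGEN Ovation V2, hybridized 1 array per mouse and normalized the arrays with dChip (version not given in the sources used here). The deposited values are linear intensity per probe set, and their number of arrays limits the precision. Mice were littermates per the methods, with litters not known here, so litter was not in the fit. Probe sets were named by a reference table: 34958 had 1 symbol, 932 several and 9211 none. Lower intensities were raised to a floor, the 20th percentile over all arrays (19.3), before log2. A gene was read from its brightest probe set, except Runx1, Gata3, Elf5, Foxa1, Cited1 and Esr1, which were read from the probe sets the study names. A mean intensity of at least 73.5, the 40th percentile of probe set means, was required. Tests used limma 3.58.1 in R 4.3.3 (lmFit, eBayes with trend), Benjamini-Hochberg adjusted over all 12152 genes, or over all 27061 probe sets for values of second probe sets and of Runx1. The fit was first tested on simulated data. Members, lists and the other pathway genes to name (chosen by role, plus the 3 smallest p-values) were chosen with earlier results of these data known. Alternatives changed the intensity minimum (none, or the 60th percentile), the normalization (quantile, or scaling to equal medians) and the floor (a pseudocount of 5.04 instead). Others were each mouse left out, animal number range as a block and within ranges, eBayes without trend, adjusted p under 0.1, the methods' t-test and the mean of a gene's probe sets. Promoter sequences are from RefSeq (GRCm38.p6).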

Additional observations from a re-analysis of the deposited data

How the results depend on the processing

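The count of members passing an adjusted p under 0.05 was 0 by limma and by the methods' t-test under every alternative that gave a test, and the counts over all genes, all probe sets and the other pathway genes were also 0. The members' median log2 difference kept its sign, from -0.28 to -0.01 with each mouse left out and from -0.20 to -0.06 otherwise. Notch4, Jag1, Rbpj and Hey1 stayed below 0 in all alternatives run. Median scaling turned Notch3 to 0.055 and moved the median of all genes from -0.02 to 0.07. The upper range of animal numbers (1 mouse against 1, no test) turned Notch1 to -0.14, Notch3 to 0.22 and Hes1 to 0.80. With each mouse left out, Notch2 ran from -0.28 to 0.014 (above 0 without Runx1-null mouse 3), Notch3 from -0.13 to 0.030 (without Runx1-null mouse 1), Dll1 from -0.0090 (without Runx1-WT mouse 3) to 0.43 and Hes1 from -0.37 to 0.092 (without Runx1-null mouse 1), with 0.0068 without Runx1-WT mouse 2. The cause was not tested. Unadjusted limma p-values under 0.05 appeared for Hey1 without Runx1-WT mouse 2, Jag1 without Runx1-WT mouse 3 and Notch1 without Runx1-null mouse 3, and for Jag1 with the range as a block, none of which held after adjustment. Of all 12152 genes, 220, 818, 579 and 305 had such p-values in these settings, in the same order. With all mice and no block 234 did. No paired analysis was possible because the labels give the groups no shared replicate numbers or litters. Notch4 and Jag2, near the intensity minimum, are limited by signal over background.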
